A study of Mus musculus with 2 samples.

Results

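The genes of the MHC class II presentation pathway were followed through a single-cell RNA sequencing study of the mouse aorta. The set comprised 7 genes chosen by name, H2-Aa, H2-Ab1, H2-Eb1, H2-DMa, H2-DMb1, Cd74 and Ciita, out of 33696 features, and all 7 were present in both count matrices. The study compared 1 library from a wild-type (WT) aorta with 1 library from a Kif13b-/- aorta, made with the 10x 3′ v3.1 chemistry. Kif13b encodes a kinesin motor protein. The title of the Kif13b-/- library names a homozygous knockout, whereas its genotype field reads knock down; Kif13b itself was measured at 70.5 CPM in the WT and 43.8 CPM in the Kif13b-/- library (CPM, UMIs of a gene scaled to 1000000 UMIs of the cells in question). The sources used here give no strain, age, sex, diet, treatment or number of animals, and do not say whether animals were pooled. Both libraries are labelled as aorta, whereas the design text of the series describes cultured macrophages grown from bone marrow, with and without apoptotic cells; the tissue labels were used, and the libraries held endothelial-like, smooth muscle-like and fibroblast-like cells.

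MHC class II molecules present peptides taken up from outside the cell to CD4+ T cells. They are α and β chain pairs that are assembled with the invariant chain, moved to endosomes, and loaded with peptide there by the DM protein. Dendritic cells, B cells and macrophages are the classical expressing cells, through the transactivator CIITA, and interferon gamma can induce the pathway in other cells, including endothelium.

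With 1 library per genotype no test of the genotype was possible, and a difference between genotypes cannot be told apart from a difference between the 2 libraries. All intervals are 95% intervals of counting error only. The libraries held 21126 (WT) and 7766 (Kif13b-/-) barcodes, more than the 6000 cells loaded for each, and shared 52 barcodes; leaving these out moved the log2 ratio of the summed members between libraries by at most 0.020 in the 8 cell groups recomputed. After filtering, 16686 and 6887 cells with a median of 2385 and 5760 UMIs were analysed, of which 31.3% and 47.5% lay in clusters without a name. The clusters were made without MHC class II genes and named from markers that include none, so that the levels below did not define the cells. In the 4 classes whose members were compared between genotypes all markers were detected (9 of 9 in macrophage-like, 14 of 14 in dendritic cell-like, 10 of 10 in B cell-like and 9 of 9 in endothelial-like cells). The classes were named from these same markers, so their detection is no check of how pure the classes are.

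The members fall into 3 places of the genome. In GENCODE M21 on GRCm38, 5 of them lie within 197 kb of chromosome 17: H2-DMa at chr17:34119541-34139101, H2-DMb1 at chr17:34153072-34160230, H2-Ab1 at chr17:34257689-34269419, H2-Aa at chr17:34282744-34287823 on the minus strand and H2-Eb1 at chr17:34305867-34316674. Ciita lies at chr16:10480059-10528418. H2-DMb2, a near copy of H2-DMb1, ends 1.52 kb before H2-DMb1 starts, and reads of these 2 genes may have been split between them. The promoters of class II genes share an X box, bound by the RFX complex, and a Y box, bound by NF-Y, on which CIITA acts. RefSeq windows from 250 bases before to 50 bases after the start (GRCm38.p6) were at hand for 4 of the 7 members, H2-Aa, H2-Eb1, H2-DMa and H2-DMb1. They were searched on both strands for the X box core GNAAC followed by NNNTG and the Y box ATTGG. The stretch around these boxes is shown for the genes of an α and a β chain, in the gene's own direction, with matches in capitals.
H2-Eb1 (chr17:34305768-34305820, plus strand): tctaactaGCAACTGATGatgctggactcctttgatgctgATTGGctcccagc
H2-Aa (chr17:34287859-34287911, minus strand): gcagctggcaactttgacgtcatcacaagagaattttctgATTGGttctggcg

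In H2-Eb1 the X core began 91 bases and the Y box 59 bases before the start, with 22 bases between them. H2-DMb1 held an X core (GTAACTGATG) 94 bases and a Y box 61 bases before its start, with 23 bases between them, the same arrangement as in H2-Eb1. At the same distance from its Y box H2-DMb2 read TTAACCGATG, which did not match the core. H2-Aa had a Y box 48 bases before the start and no match to the X core in its window, and the 2 windows of H2-DMa held 0 and 1 Y box and no X core. Of 32851 mouse promoters, 11.6% held the X core, 37.4% the Y box, and 0.451% an X core followed by a Y box within 40 bases. These letters describe the windows and were not tied to any level below.

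Dendritic cell-like cells carried the highest levels of all 7 members in both libraries. The summed level of the 7 genes was 34880 CPM (34604 to 35157) in 179 WT cells and 35987 CPM (35650 to 36326) in 79 Kif13b-/- cells. B cell-like cells followed with 11239 CPM (10928 to 11556) in 142 WT and 7642 CPM (7441 to 7847) in 110 Kif13b-/- cells, and macrophage-like cells with 7317 CPM (7269 to 7366) in 2536 and 6288 CPM (6236 to 6341) in 913 cells. Endothelial-like cells held 746 CPM (725 to 767) in 2308 WT and 1110 CPM (1076 to 1145) in 535 Kif13b-/- cells. Smooth muscle-like cells, which are not among the classical expressing cells, held 42.0 CPM (38.5 to 45.8) and 55.6 CPM (50.8 to 60.8). The order of these 5 classes was the same in both libraries, and no interval of neighbouring classes overlapped within a library. The step from macrophage-like to B cell-like cells was the smallest, and in WT it was gone when cells were classed one by one by their marker scores.

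**Figure D1:**
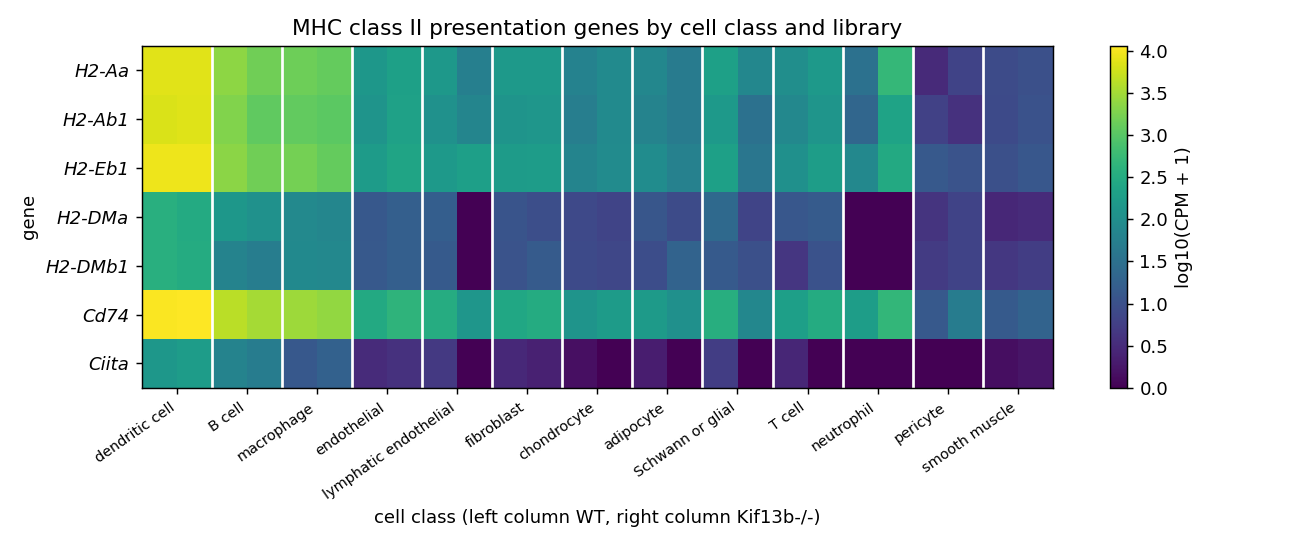
Level of each of the 7 genes (rows, log10 of CPM + 1, colour) in 13 named cell classes (columns; WT left and Kif13b-/- right in each pair). Dendritic cell-like columns are the brightest for every gene, from 34880 to 35987 CPM summed, and smooth muscle-like columns are at 42.0 and 55.6 CPM.

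Member by member, the chains of the presenting molecules gave the larger counts. H2-Aa, the α chain of the I-A molecule, was at 7432 CPM in WT and 7580 CPM in Kif13b-/- dendritic cell-like cells, and at 1453 and 1250 CPM in macrophage-like cells. H2-Ab1, the β chain of I-A, was at 6785 and 7263 CPM in dendritic cell-like and at 1208 and 1070 CPM in macrophage-like cells. H2-Eb1, the β chain of I-E, was at 8869 and 8929 CPM in dendritic cell-like and at 1592 and 1251 CPM in macrophage-like cells. An antisense gene overlaps H2-Eb1 in GENCODE M21, and the sources used here do not give how strand entered the counting. Its partner H2-Ea, the α chain of I-E and a gene known to be defective in some laboratory strains, had 1 UMI in WT and 3 UMIs in Kif13b-/- dendritic cell-like cells and 0 in B cell-like and macrophage-like cells of both libraries.

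Cd74, the invariant chain that escorts class II molecules, had the largest share of member UMIs in each of the 4 classes. It was at 10932 CPM in WT and 11430 CPM in Kif13b-/- dendritic cell-like cells, at 4409 and 3274 CPM in B cell-like, at 2889 and 2551 CPM in macrophage-like, and at 287 and 437 CPM in endothelial-like cells. A UMI of Cd74 was found in 99.4% and 100% of dendritic cell-like cells, 87.3% and 92.7% of B cell-like, 67.4% and 65.1% of macrophage-like, 28.9% and 49.9% of endothelial-like, and 6.27% and 13.2% of smooth muscle-like cells. Median depths were 8975 and 15077 UMIs in dendritic cell-like, 2446 and 4867 in B cell-like, 1924 and 5419 in macrophage-like, 1964 and 3991 in endothelial-like, and 6667 and 11528 in smooth muscle-like cells. The share of endothelial-like cells lay above that of the deeper smooth muscle-like cells in both libraries.

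The subunits of the peptide loader DM, H2-DMa and H2-DMb1, were counted at far lower levels than the chains. H2-DMa was at 358 and 301 CPM in dendritic cell-like, 138 and 110 CPM in B cell-like and 79.8 and 72.0 CPM in macrophage-like cells (WT and Kif13b-/-). H2-DMb1 was at 365 and 311 CPM in dendritic cell-like, 63.5 and 51.5 CPM in B cell-like and 84.2 and 77.0 CPM in macrophage-like cells. B cell-like cells held more H2-DMa but not more H2-DMb1 than macrophage-like cells. In B cell-like cells most UMIs of the 2 β subunit genes were of the copy H2-DMb2, 70.5% (60.3 to 79.4, exact binomial) in WT and 67.8% (58.5 to 76.2) in Kif13b-/-. That share was 22.4% (19.6 to 25.4) and 21% (17.4 to 24.9) in dendritic cell-like cells and 1.78% (1.06 to 2.80) and 2.16% (1.21 to 3.54) in macrophage-like cells. The share of β subunit UMIs assigned to H2-DMb2 thus separated the 3 presenting classes in both libraries, beyond counting error. The part of reads split between the near copies in these shares was not tested.

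Ciita, the transactivator, followed the order of the classes at a low count. It was at 139 CPM (123 to 158) in WT and 174 CPM (152 to 199) in Kif13b-/- dendritic cell-like cells and at 63.5 and 48.8 CPM in B cell-like cells. Macrophage-like cells held 11.95 CPM (10.1 to 14.1) in WT and 17.1 CPM (14.5 to 20.1) in Kif13b-/-. In endothelial-like cells only 14 and 10 UMIs of Ciita were counted, 2.13 CPM (1.16 to 3.57) and 2.78 CPM (1.33 to 5.11), against 0.41 and 0.68 CPM in smooth muscle-like cells. Per 1000 UMIs of H2-Aa and H2-Ab1 together, Ciita had 4.49 and 7.38 UMIs in macrophage-like, 9.81 and 11.7 in dendritic cell-like and 14.7 and 18.2 in B cell-like cells.

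To place every cell at the same depth, each cell was thinned to 1000 UMIs and shallower cells were left out. Dendritic cell-like cells then held a median of 34 (WT) and 37.5 (Kif13b-/-) member UMIs per cell, and 1.68% and 0% of cells had none (0 of 78 cells, exact upper bound 4.62%). B cell-like cells had a median of 10 and 4, macrophage-like cells 2 and 1, and endothelial-like cells 0 and 0. Macrophage-like cells were the most uneven of the presenting classes: 31.8% and 43.5% had no member UMI, while the tenth of cells with the most held 49.8% and 62.1% of the class's member UMIs, against 18.8% and 17.6% in dendritic cell-like cells.

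**Figure D2:**
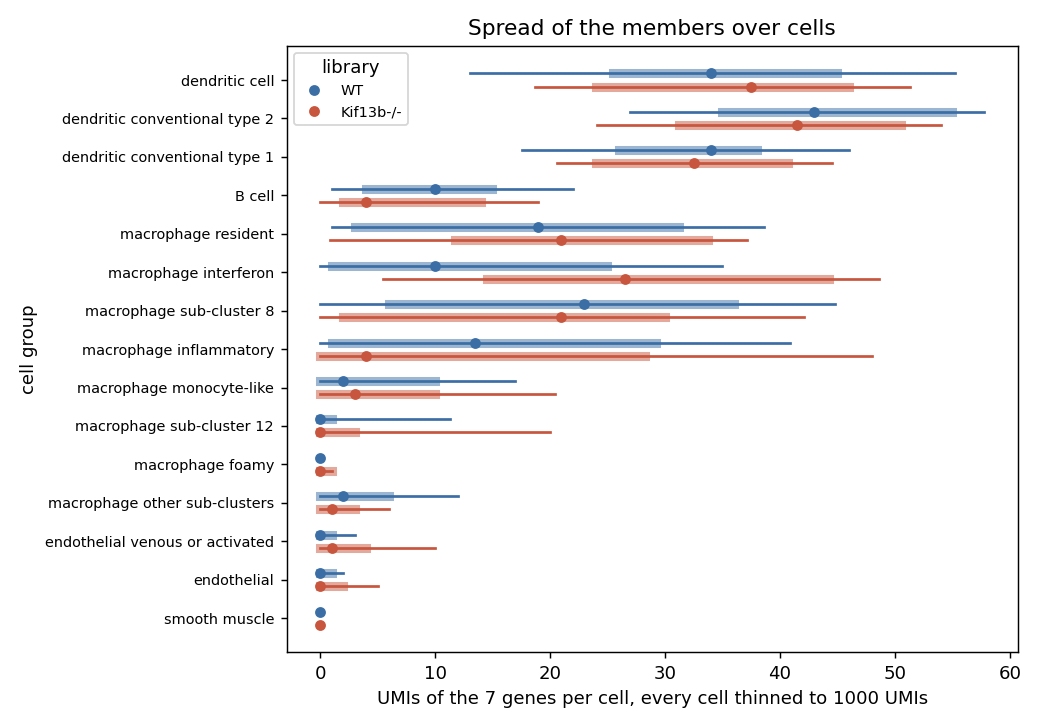
Member UMIs per cell after thinning every cell to 1000 UMIs (x axis) in each cell group (y axis; WT blue, Kif13b-/- red); points are medians, thick bars the middle 50% of cells and thin lines the middle 80%. Among the groups drawn, medians range from 0 in foamy-like and smooth muscle-like cells to 43 in conventional type 2 dendritic-like cells of the WT library.

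The member level differed between the sub-clusters of the macrophage-like class. The foamy-like state, marked by Trem2, Gpnmb and Fabp5, held 267 CPM (231 to 306) in 85 WT and 491 CPM (448 to 536) in 63 Kif13b-/- cells. Sub-cluster 12, led by Lyz1, Fat3 and Myo16 and left without a name, held 2622 and 3632 CPM, and the monocyte-like state 6985 and 6679 CPM. The inflammatory-like state was at 13948 and 11483 CPM and the interferon-like state at 13231 and 27985 CPM. The resident-like state, marked by Lyve1, Cd163 and Folr2, reached 20332 CPM in 48 WT and 22922 CPM in 10 Kif13b-/- cells. Sub-cluster 8, led by Zfp366, Ccr7, Dpp4 and Irf4 and also without a name, reached 25267 CPM in 102 and 24417 CPM in 41 cells. As a ratio of highest to lowest, the states thus spanned a wider range than the macrophage-like and dendritic cell-like classes as a whole. The state nearest to dendritic cell-like cells was sub-cluster 8 in WT and the interferon-like state in Kif13b-/-. Ccr7 and Dpp4, which led sub-cluster 8, belong to the dendritic cell markers used for naming. Flt3, another of these markers, was at 12.1 and 18.3 CPM in sub-cluster 8 against 173 and 166 CPM in dendritic cell-like cells. Sub-cluster 8 held 24.2% of macrophage-like member UMIs in WT and 19.2% in Kif13b-/-. Whether its cells are macrophages or dendritic cells was not tested.

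The foamy-like state thus contributed little to the class. It held 6.48% of the class's UMIs in WT and 11.2% in Kif13b-/-, but 0.236% and 0.871% of its member UMIs. Median member UMIs per foamy-like cell at 1000 UMIs were 0 in both libraries, and 90.7% (81.7 to 96.2) and 72.2% (58.4 to 83.5) of cells had none. The genes of complement C1q, which mark macrophages, were not low there, with 0.0327 and 0.0719 member UMIs per C1q UMI against 1.42 and 1.03 in the whole class. The makeup of what was left differed as well: H2-DMa made up 11.3% and 4.55% of foamy-like member UMIs, and 1.09% and 1.15% in the whole class. Cluster 18, led by Cd5l, Mmp12 and Trem2 but too poor in macrophage markers to be named, was also low, at 697 CPM in 256 WT and 1685 CPM in 383 Kif13b-/- cells.

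**Figure D3:**
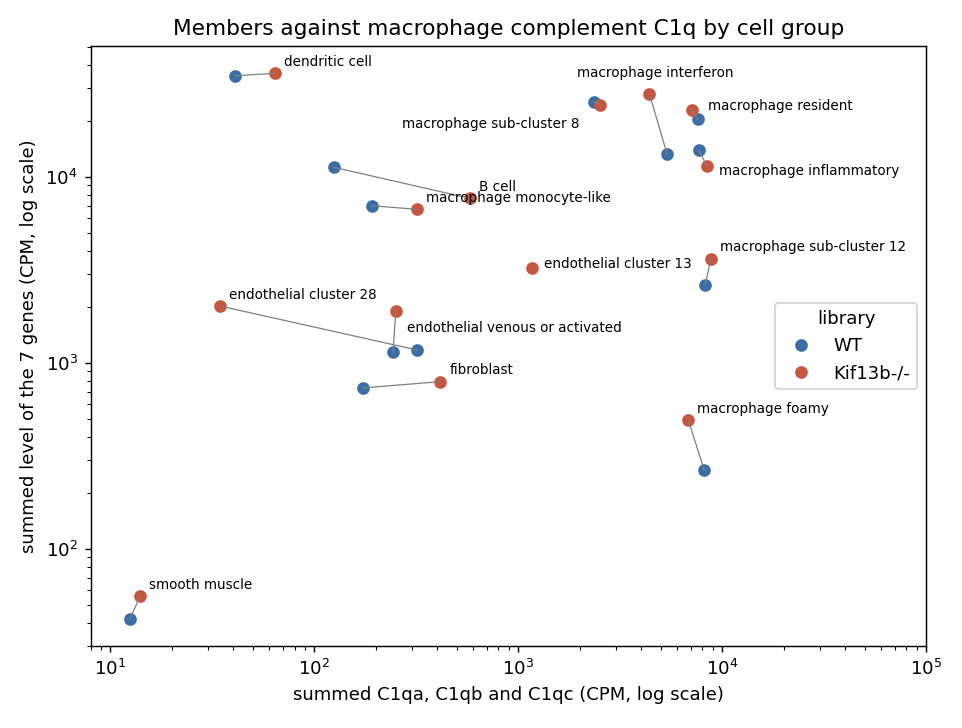
Summed level of the 7 genes (y axis, CPM, log scale) against the summed level of the C1q genes (x axis, CPM, log scale) in cell groups of each library (WT blue, Kif13b-/- red, joined by a line). Foamy-like cells lie at the C1q level of the other macrophage-like states but at 267 and 491 CPM of the members, while dendritic cell-like cells lie at the lowest C1q of the presenting classes and the highest member level.

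Within the dendritic cell-like class all 5 sub-clusters lay above the macrophage-like and B cell-like classes. Conventional type 2-like cells, which share Cd209a, Clec10a and Sirpa, held 41873 CPM in 37 WT and 42173 CPM in 22 Kif13b-/- cells. Their name rests on 3 of 5 markers, and their leading genes also included C1qc and Cd14, which belong to the macrophage markers. Flt3 was at 37.4 CPM (WT) and 43.6 CPM (Kif13b-/-) in them, the lowest of the 5 sub-clusters in both libraries. Conventional type 1-like cells, which share Xcr1 and Clec9a, held 32784 and 32564 CPM in 29 and 14 cells. In both states the counting intervals of the libraries overlapped, whereas those of the 2 states did not. The other sub-clusters had no state name. Sub-cluster 3, led by Hspa1b, held 39820 and 45077 CPM, sub-cluster 1, led by Nox4, 28858 and 26058 CPM, and sub-cluster 4, led by Fscn1, was the lowest in both libraries at 28072 CPM in 19 WT and 21180.5 CPM in 7 Kif13b-/- cells. Sub-cluster 4 had 6 of 6 markers of migratory dendritic cells raised, but fewer cells than the 30 needed for a name. The share of H2-DMb2 among the β subunit UMIs ranged from 10.4% and 12.1% in conventional type 1-like cells to 40.4% and 36.6% in sub-cluster 3. Cluster 16, led by genes that include Flt3, Ccr7 and Klrk1 but without a class name, held 9258 CPM in 484 WT and 11924 CPM in 208 Kif13b-/- cells.

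For the comparison between genotypes at matched depth, levels were taken from cells thinned to 1000 UMIs, and a gene was called higher or lower at a ratio of 1.5 or more with at least 20 UMIs over both libraries. In macrophage-like cells 0 of 7 members were called in either direction, where 7.69% of the 9642 genes measured were called higher and 12.6% lower in Kif13b-/-. The summed level was 6807 CPM in WT and 5919 CPM in Kif13b-/-, a log2 ratio of -0.20. The log2 ratio was -0.20 for Cd74 (-0.28 to -0.13), -0.28 for H2-Eb1, -0.19 for H2-Ab1 and -0.14 for H2-Aa, and their median of all 7 members was -0.20 against -0.03 over all genes. Ciita was the member with a value above 0, at 0.35, with an interval that spans 0 (-0.88 to 1.42); with all UMIs it was 0.52 (0.18 to 0.86). With all UMIs also 0 of 7 members were called, beside 17.3% of genes in either direction.

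The macrophage-like direction did not hold in every cell. WT macrophage-like cells lay mostly in cluster 0, with a median depth of 1412 UMIs, and Kif13b-/- cells were spread over cluster 0 and the deeper cluster 15. By depth, the summed level was 4933 in WT and 3004 CPM in Kif13b-/- cells of 1000 to 2000 UMIs, 6383 and 3539 CPM at 2000 to 5000 UMIs, and 13266 and 7536 CPM at 5000 to 10000 UMIs. Above 10000 UMIs the order turned, with 5900 CPM in WT and 6543 CPM in Kif13b-/-. When each sub-cluster was given the same weight in both libraries, the log2 ratio with all UMIs went from -0.22 to 0.08 (6638 and 7019 CPM), and the median of the members with thinned cells from -0.20 to -0.061. Sub-cluster 12, which is low in the members, held 17.6% of WT and 29.2% of Kif13b-/- macrophage-like UMIs.

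**Figure D4:**
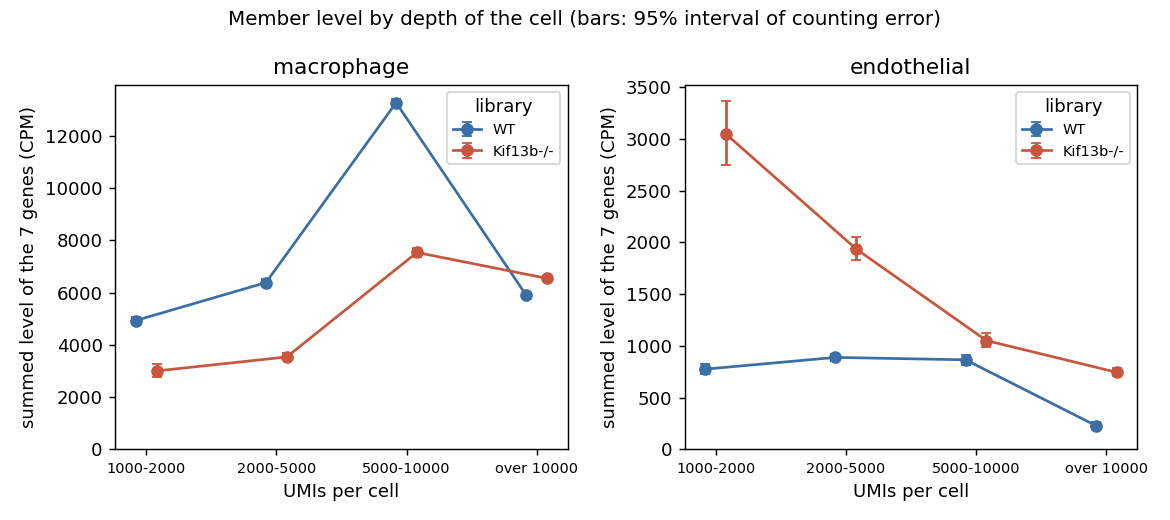
Summed level of the 7 genes (y axis, CPM, with 95% counting intervals as bars) in macrophage-like (left) and endothelial-like (right) cells by UMIs per cell (x axis; WT blue, Kif13b-/- red). In macrophage-like cells Kif13b-/- lies below WT up to 10000 UMIs and above it beyond, and in endothelial-like cells Kif13b-/- lies above WT in all 4 depth ranges.

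Among the macrophage-like states, the members of the interferon-like cells were higher in Kif13b-/-, with summed levels at matched depth of 14370 CPM in WT and 27857 CPM in Kif13b-/-. In the foamy-like state, which had a larger ratio at matched depth, only 11 and 29 UMIs were counted. In the interferon-like cells, of 4 members with enough UMIs, 4 were called higher in Kif13b-/-, beside 15.6% of genes. H2-Aa was at 3137 CPM in WT and 6107 CPM in Kif13b-/-, a log2 ratio of 0.96, H2-Ab1 differed by 1.03, H2-Eb1 by 0.94 and Cd74 by 0.98 (0.77 to 1.2). Only 74 WT and 29 Kif13b-/- cells stand behind these values, and the marker genes of the state (Ifit1, Rsad2 and others) were also higher, at 4850 and 7698 CPM; their part was not tested. With macrophage-like cells divided more coarsely, the log2 median of the members was 0.21.

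The other states differed in both directions. In the unnamed sub-clusters pooled as the remainder, 6 of 6 members were called lower in Kif13b-/-, beside 12.6% of genes, at 4459 CPM in WT and 2482 CPM in Kif13b-/- (log2 ratio -0.84). Many of these sub-clusters were led by genes of other tissue cells, such as Col2a1 and Acan, Cdh5 and Cldn5, or Lmod1; the part of foreign RNA in them was not tested. In sub-cluster 8, 1 of 6 members (H2-DMb1, 31 and 8 UMIs) was called lower, beside 13.3% of genes. In sub-cluster 12, 0 of 4 were called higher, beside 11.9% of genes, though all 4 had values above 0. None of 4 members was called in the monocyte-like state (24.5% of genes in either direction) and 0 of 6 in the inflammatory-like state (26.4%). The foamy-like state had too few UMIs after thinning; with all UMIs 5 of 6 members were called higher, beside 12.5% of genes, with Cd74 at 99.3 CPM in WT and 219 CPM in Kif13b-/- (1.14, 0.76 to 1.54), the WT cells having a median of 3539 and the Kif13b-/- cells of 13680 UMIs.

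In dendritic cell-like cells the chains did not separate the libraries. The summed level at matched depth was 35190 CPM in WT and 35397 CPM in Kif13b-/-, a log2 ratio of 0.01, and H2-Ab1 at 0.21 (0.06 to 0.35) was the largest difference among the chains. Of 7 members 2 were called lower, H2-DMa (72 and 16 UMIs, log2 ratio -0.94, -1.85 to -0.18) and H2-DMb1 (64 and 12 UMIs, -1.17, -2.24 to -0.31), beside 12.6% of genes lower and 13.5% higher. With all UMIs the 2 genes were at -0.25 and -0.23 and 0 of 7 members were called, beside 20.1% of genes in either direction. With 2000 UMIs per cell H2-DMa was at 0.17, whereas H2-DMb1 was below 0 in all 15 alternatives (-1.47 to -0.23).

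In B cell-like cells the summed level at matched depth was 10772 CPM in WT and 8010 CPM in Kif13b-/-, a log2 ratio of -0.43 that did not reach the ratio of 1.5. Of 5 members 2 were called lower, H2-Aa (2439 and 1486 CPM, -0.71, -1.0 to -0.43) and H2-DMa (21 and 11 UMIs), beside 22.4% of genes lower and 14.6% higher. Cd74 was at -0.22 (-0.53 to 0.18 over its 16 alternatives). With all UMIs 3 of 7 were called lower, H2-Aa, H2-Ab1 and H2-Eb1, beside 35.8% of genes in either direction. Macrophage genes also differed: Lyz2 was at 99.7 CPM in WT and 1865 CPM in Kif13b-/- B cell-like cells and the C1q genes at 125 and 581 CPM, while the summed B cell markers were at 4845 and 3294 CPM. In cells with no UMI of Lyz2 or C1q the median log2 ratio of the members was -0.21 in place of -0.53.

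**Figure D5:**
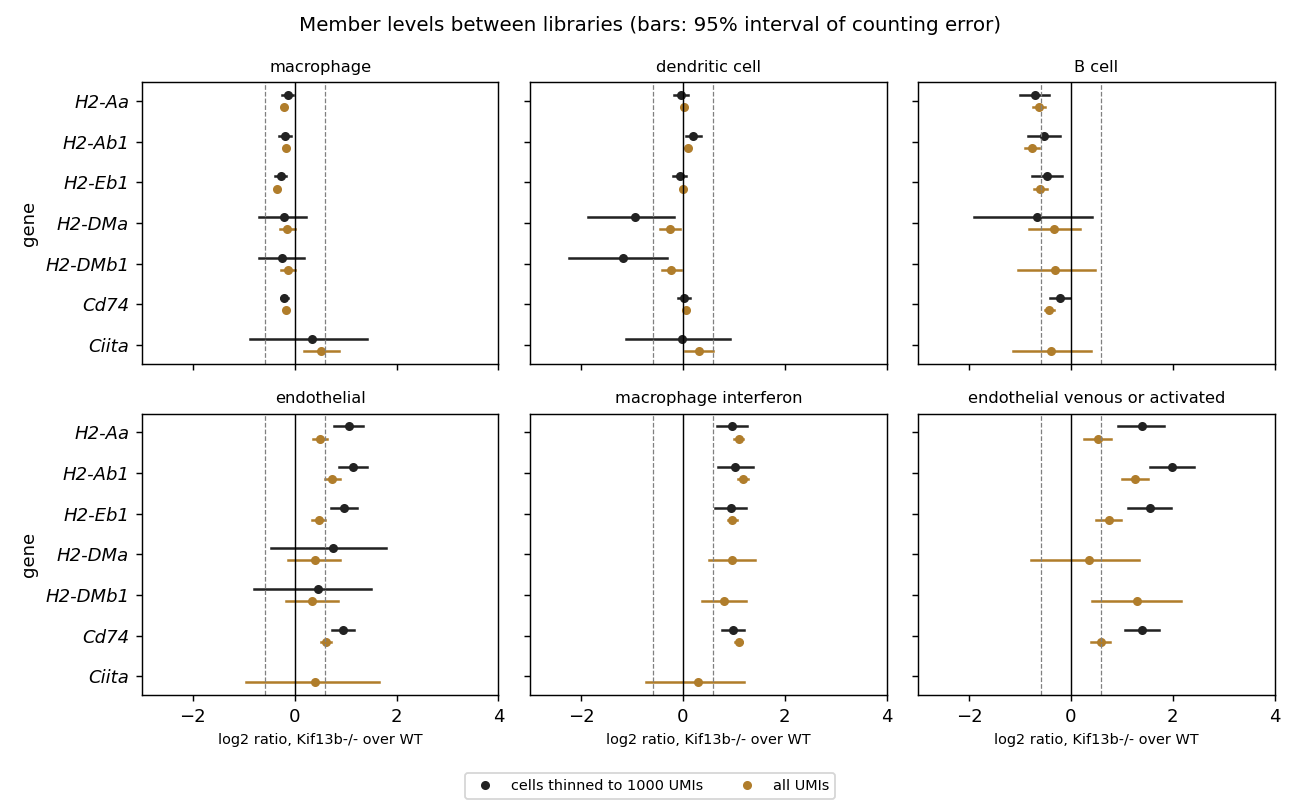
Log2 ratio of Kif13b-/- over WT (x axis) for each of the 7 genes (y axis) in 6 cell groups, with cells thinned to 1000 UMIs (black) and with all UMIs (brown); bars are 95% counting intervals and dashed lines mark a ratio of 1.5 in either direction. Members lie within the dashed lines in macrophage-like cells, below 0 in B cell-like cells, and above 0 in endothelial-like and interferon-like cells. In dendritic cell-like cells the chains and Cd74 lie near 0. With thinned cells H2-DMa (-0.94) and H2-DMb1 (-1.17) lie beyond the lower dashed line there.

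In endothelial-like cells the members were higher in Kif13b-/-. At matched depth the summed level was 825 CPM in 1878 WT and 1653 CPM in 504 Kif13b-/- cells, a log2 ratio of 1.00 (0.88 to 1.13). Of 6 members 5 were called higher in Kif13b-/-, beside 10.3% of genes higher and 11.4% lower: H2-Aa (1.07, 0.78 to 1.35), H2-Ab1 (1.15), H2-Eb1 (0.98), Cd74 (0.95, 0.74 to 1.16) and, on 25 and 11 UMIs, H2-DMa (0.75). With all UMIs the members were nearer to each other and 2 of 7 were called higher, H2-Ab1 and Cd74, beside 14.9% of genes in either direction. Kif13b-/- cells lay above WT in each depth range, at 3044 against 775 CPM at 1000 to 2000 UMIs, 1935 against 889 CPM at 2000 to 5000, 1051 against 865 CPM at 5000 to 10000, and 745 against 231 CPM above 10000 UMIs. The size of the difference thus depended on depth, and it was smallest in cells of 5000 to 10000 UMIs. Cluster 13 of this class held 39 Kif13b-/- cells and no WT cells. Its thinned cells had a mean of 4.26 member UMIs, against 1.65 in all Kif13b-/- endothelial-like cells. With endothelial-like cells classed one by one by their marker scores the median log2 ratio of the members was 0.16 in place of 0.96. At matched depth the summed level also differed in other classes, in both directions. It was higher in Kif13b-/- in smooth muscle-like (50.2 and 94.1 CPM, log2 ratio 0.91), chondrocyte-like (0.78) and neutrophil-like cells (2.25, 23 and 73 UMIs). It was lower in fibroblast-like (-0.38), adipocyte-like (-0.93) and Schwann or glial-like cells (-1.62). Whether the endothelial-like difference is particular to that class was not tested.

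Leukocyte RNA was present in the endothelial-like cells and was higher in Kif13b-/-, with the summed macrophage markers at 410 CPM in WT and 610 CPM in Kif13b-/- and the C1q genes at 237 and 356 CPM. Per C1q UMI the members had 3.15 UMIs in WT and 3.12 in Kif13b-/- endothelial-like cells, 1.42 and 1.03 in macrophage-like and 3.37 and 3.98 in smooth muscle-like cells. In the endothelial-like cells with no UMI of C1q, Lyz2, Ptprc, Flt3 or Cd79a, the members were at 363 CPM in 1333 WT and 838 CPM in 211 Kif13b-/- cells (median depth 1795 and 3463 UMIs), against 37.6 and 43.9 CPM in smooth muscle-like cells chosen the same way. With every cell holding a UMI of any leukocyte marker left out, the members were at 550.0 CPM in 374 WT and 1518 CPM in 56 Kif13b-/- endothelial-like cells (median depth 1060 and 1225 UMIs) and at 141 and 100.1 CPM in smooth muscle-like cells. The log2 ratio of endothelial-like over smooth muscle-like cells was then 1.95 in WT and 3.86 in Kif13b-/-, in place of 4.15 and 4.32.

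The endothelial-like states differed from each other. The venous or activated-like state, marked by Ackr1, Selp and Sele, held 1143 CPM in 646 WT and 1909 CPM in 131 Kif13b-/- cells. Cluster 28, led by Igfbp3, Vwf and Ackr1 and left without a state name, held 1172 and 2020 CPM. The arterial-like state held 381 and 453 CPM, the capillary-like state 312 and 76.7 CPM, and cluster 11, led by Sema3g and Gkn3, 518 and 609 CPM. Cluster 13 held 39 Kif13b-/- cells and no WT cells, at 3246 CPM. Venous-like cells and cluster 28 thus lay above arterial-like and capillary-like cells in both libraries, with no overlap of the counting intervals. Against the other endothelial-like cells, the leading genes of cluster 28 included Chad, Col2a1 and Fmod, and those of cluster 11 Lyz2 and Ctss. Those of cluster 13 included Serpinb2, Cyp2e1, Lyz1 and Cfd. The part of foreign RNA in these clusters was not tested.

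At matched depth 4 of 4 members were called higher in Kif13b-/- venous-like cells, beside 15.4% of genes, with H2-Ab1 at 190 CPM in WT and 750 CPM in Kif13b-/- (1.98, 1.55 to 2.41) and Cd74 at 405 and 1069 CPM (1.4, 1.07 to 1.73). Cells with 10 or more member UMIs made up 2.33% of WT and 12.1% of Kif13b-/- venous-like cells, so a minority of cells carried much of the difference. Among venous-like cells of at least 5000 UMIs the direction turned, with a median log2 ratio of -0.64. In cluster 28, 3 of 4 members were called higher, beside 14.4% of genes, with a log2 ratio of the sum of 0.55. In capillary-like cells 2 of 2 members were called lower, beside 13.2% of genes, but on 86 and 8 UMIs of all members together.

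The rest of the pathway was described from 7 lists with 44 genes in total, counted at matched depth. Other class II loci had few UMIs outside the presenting classes. In B cell-like cells 2 of 3 measured were called lower in Kif13b-/-, H2-Ob (a subunit of DO, which restrains DM; 236 and 113 CPM with all UMIs) and H2-Eb2, and in dendritic cell-like cells 1 of 4, H2-DMb2. Of the genes that transcribe class II loci (RFX subunits, NF-Y subunits and Creb1), 0 of 5 were called in macrophage-like, 0 of 1 in dendritic cell-like and 0 of 5 in endothelial-like cells, and 2 of 2 were called lower in B cell-like cells (Nfyc and Creb1). Of the genes by which interferon gamma induces Ciita, 0 of 7 were called in macrophage-like cells, 0 of 5 in dendritic cell-like cells and 1 of 3 in B cell-like cells (Ifngr2, higher). In endothelial-like cells 1 of 7 was called, Socs1, a brake on this signal, which was lower. Irf1, a transcription factor of this pathway, was at 218 CPM in WT and 268 CPM in Kif13b-/- there. Ifng itself had 21 UMIs in WT and 68 UMIs in Kif13b-/- T cell-like cells; 1 of the T cell-like clusters also held natural killer cell markers, so these values are not compared.

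Of the genes that process antigen and the invariant chain, 0 of 7 were called in macrophage-like, 0 of 6 in dendritic cell-like and 1 of 7 (Ctss, higher) in endothelial-like cells. In B cell-like cells 5 of 7 were called higher in Kif13b-/-, Ctss, Ctsl, Lgmn, Ctsb and Ctsd, proteases that macrophages also hold, beside the higher Lyz2 given above. Of the genes of surface turnover, Cd83, which keeps class II molecules at the surface, was called higher in macrophage-like cells (1 of 3) and with Il10 in endothelial-like cells (2 of 2), and 0 of 1 were called in dendritic cell-like and in B cell-like cells. Costimulatory genes had 0 of 4 called in macrophage-like and dendritic cell-like cells, 1 of 2 lower in B cell-like cells (Cd274), and in endothelial-like cells Cd86 higher (51 and 26 UMIs) and Cd40 lower (26 and 4 UMIs) of 4. With all UMIs neither was called there, Cd86 being at 28.8 and 28.9 CPM and Cd40 at 11.3 and 15.3 CPM. The MHC class I pathway, for comparison, had 1 of 9 called higher in macrophage-like cells (Psmb8) and 1 of 6 in dendritic cell-like cells (Psmb9). In B cell-like cells it had 0 of 5 called and in endothelial-like cells 0 of 9. In the latter 5 of 6 class II members were called higher, beside 10.3% of genes, but with all UMIs only H2-Ab1 and Cd74. With all UMIs these further calls also no longer stood: H2-DMb2 and Psmb9 in dendritic cell-like cells, Cd83 and Psmb8 in macrophage-like cells, Socs1 in endothelial-like cells, and Creb1 and Ctss in B cell-like cells. Ifngr2 in B cell-like cells turned from 0.69 (10 and 14 UMIs) to -0.68, called lower.

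The genes most like the members across cell types were found by the correlation of log2(CPM + 1) with the summed member level over 24 points (12 classes in each of 2 libraries), among 12032 genes. They were Cd86 (r = 0.943), Napsa (0.939), Ly86 (0.919), Pkib (0.914), Pld4 (0.907), Cd83 (0.906), Ms4a6c (0.894) and Cd40 (0.892). Cd86 and Cd40 act in costimulation. The members themselves, which are part of the sum, reached 0.996 for Cd74 and H2-Eb1, 0.990 for H2-Aa, 0.989 for H2-Ab1, 0.882 for Ciita, 0.842 for H2-DMa and 0.788 for H2-DMb1. The points share their library and their depth, so these values are descriptions. H2-DMb1 was thus the member whose pattern followed the sum least.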

How the data were processed

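UMI counts per gene and barcode, as deposited by the authors in 1 filtered matrix per library (WT and Kif13b-/- aorta), were used. Per the file headers they come from Cell Ranger 8.0.1, and per the submitters' processing notes the build is mm10; annotation and strand handling: not given in the sources used here. No column was left unused (0). The members and all gene lists were chosen with earlier results of these data known.

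Barcodes had to hold at least 500 UMIs and 300 genes, with no more than 20% of UMIs mitochondrial (19832 and 7315 passed). Scrublet marked 0 barcodes by its automatic threshold, so it had not worked, and the highest-scoring 0.8% per 1000 barcodes were removed instead. With scanpy 1.11.5, 2000 variable genes without 12 class II genes, 30 principal components, 15 neighbours and Leiden resolution 1 gave 40 clusters. Of these, 26 were named where at least 3 and at least 50% of a class's markers were raised at least 2-fold; these limits were chosen once the clusters had been seen. Macrophage-like cells were divided into 24 sub-clusters (resolution 1.2). Classes in which a cluster was led by another class's markers (pericyte-like, T cell-like) were not compared between genotypes.

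UMIs were summed per class and library as CPM with exact Poisson intervals; shares have exact binomial (Clopper-Pearson) intervals. For matched depth each cell of at least 1000 UMIs was thinned to 1000 UMIs without replacement, and log2 ratios were formed with 0.5 added to each count. A member or gene is called at a ratio of 1.5 with at least 20 UMIs. The thinning and the intervals were tested on simulated data. The 7 members were named whatever their values; other genes by list counts, and the values of 1 listed gene are not reported here. Alternatives were other depths, filters, clusterings, class definitions and scalings. Promoter windows are from RefSeq.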

Additional observations from a re-analysis of the deposited data

Results flagged for a closer look

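Within 2 classes the summed log2 ratio of Kif13b-/- over WT at matched depth lay above 0 in some cell groups and below 0 in others, with counting intervals on either side; with 1 library per genotype these differences were not tested. Among endothelial-like cells it was 1.55 in the venous or activated-like state, 1.28 in the arterial-like state (41 and 32 UMIs) and 0.55 in cluster 28, and -1.91 in the capillary-like state. Among macrophage-like cells it was 1.83 in the foamy-like state (11 and 29 UMIs), 0.96 in the interferon-like state and 0.49 in sub-cluster 12, and -0.11 in the inflammatory-like state, -0.21 in sub-cluster 8 and -0.84 in the pooled unnamed sub-clusters, against -0.20 for the whole class.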

How the results depend on the processing

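No paired analysis was possible because each genotype had 1 library. Values below are log2 ratios; the cause of each move was not tested. The settings on cluster 39, cluster 13, cluster 0, sub-cluster weights, Lyz2 or C1q, leukocyte UMIs, coarser states and shared barcodes were chosen after seeing the data. The median member ratio of Kif13b-/- over WT kept its sign in all 18 alternatives run for macrophage-like (-0.82 to -0.058) and endothelial-like cells (0.16 to 2.08), in all 16 for B cell-like (-0.65 to -0.21) and all 11 for interferon-like cells (0.21 to 1.14). In dendritic cell-like cells, where it was near 0, it took both signs (-0.33 to 0.10). The ratio of the summed level with all UMIs in macrophage-like cells was not among these alternatives. It turned from -0.22 to 0.08 with the states and pooled sub-clusters weighted alike. Without the pooled sub-clusters the same weighting turned it from -0.35 to 0.19.

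In macrophage-like cells the ratio of -0.20 became -0.82 with cells of 2000 to 10000 UMIs, -0.058 with at most 10% mitochondrial UMIs and -0.076 with putative doublets kept. It became -0.38 with class II genes among the variable genes, -0.41 at resolution 2 and -0.64 with classes from marker scores. It was -0.66 with unnamed clusters given to their best class and -0.64 with cluster 39 counted. With the states and pooled sub-clusters weighted alike it was -0.061. In dendritic cell-like cells -0.04 became -0.33 with cells of 2000 to 10000 UMIs, -0.26 with doublets kept, -0.22 with class II genes allowed and -0.30 at resolution 2. In B cell-like cells -0.53 became -0.21 without cells holding Lyz2 or C1q UMIs. In interferon-like cells 0.97 became 0.33 with cells of 2000 to 10000 UMIs and 0.21 with states at resolution 0.5.

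In endothelial-like cells 0.96 became 0.47 with all UMIs, 0.47 with all UMIs of barcodes of at least 1000 UMIs, 0.65 at 2000 UMIs per cell, 0.31 with cells of at least 5000 UMIs, 0.57 with the mitochondrial limit, 0.61 with doublets kept, 0.16 with marker scores, 1.97 without cells holding leukocyte marker UMIs and 2.08 without those holding C1q, Lyz2, Ptprc, Flt3 or Cd79a UMIs. In venous-like cells 1.47 became 0.66, 0.65, 0.80, -0.64, 0.66, 3.24 and 2.17 under the same settings, and doublets kept, the other clusterings and marker scores were not run for single states.

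Single members that turned were H2-DMa in dendritic cell-like cells at 2000 UMIs (0.17), in B cell-like cells with another seed (0.11) or without Lyz2 or C1q (0.038) and in endothelial-like cells with marker scores (-0.28), H2-Eb1 in interferon-like cells of 2000 to 10000 UMIs (-0.44), and H2-Aa (-1.19) and Cd74 (-0.64) in venous-like cells of at least 5000 UMIs.

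Between classes, dendritic cell-like over macrophage-like cells (2.25 in WT, 2.52 in Kif13b-/-) gave 2.37 and 2.58 with thinned cells, 2.19 and 2.36 with doublets kept, 2.33 and 2.59 with class II genes allowed, and 2.04 in WT with marker scores. B cell-like over macrophage-like cells (0.62 and 0.28) gave 0.66 and 0.44 thinned, 0.54 in WT with doublets kept, 0.77 and 0.44 with class II genes allowed, and -0.0074 and 0.49 with marker scores. Endothelial-like over smooth muscle-like cells (4.15 and 4.32) gave 4.12 in Kif13b-/- thinned, 3.43 and 3.15 with doublets kept, 3.44 and 3.72 with class II genes allowed, 1.88 and 1.90 with marker scores, 4.37 in WT with at least 2000 UMIs, 1.95 and 3.86 without leukocyte marker UMIs, and 3.27 in WT without the C1q, Lyz2, Ptprc, Flt3 and Cd79a UMIs. Scaling by the median ratio over genes shifted interferon-like cells by 0.13 and the other groups by at most 0.061. The DM genes and Ciita had few UMIs after thinning, which limits their ratios.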

Other observations

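Barcodes in clusters without a class name held member UMIs as well. Cluster 39, with 1292 barcodes in Kif13b-/- and 1 in WT, was led by Ighg2b, Gal and mitochondrial genes and had a median of 15.3% mitochondrial UMIs. Its members were at 3400 CPM, the C1q genes at 2029 CPM and Ciita at 4.05 CPM. At 1000 UMIs its cells had a median of 3 member UMIs, 4.80% had none and 0.31% had 10 or more, so its members were spread more evenly than in macrophage-like cells. Fibroblast-like cells were divided: cluster 3, led by genes that include Cpxm1, Il33 and Pi16, held 2905 CPM in WT and 2047 CPM in Kif13b-/-, and cluster 9 held 269 and 298 CPM.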
